A study of Caenorhabditis elegans with 5 samples.

Results

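The comparison was poly(A)-selected mRNA of whole *set-32* mutant *Caenorhabditis elegans* against whole wild type (WT) animals, with 1 sequencing library on each side. Levels were RPKM, reads scaled to the length of a gene model and to the depth of the library, for 20911 gene models. A gene model was a member when the higher of the 2 libraries reached 5 RPKM, which 10092 of the 20911 models (48.3%) did, covering 9523 genes. The measure of each member was log2((*set-32* RPKM + 1)/(WT RPKM + 1)), called the log2 ratio below, so a positive value means a higher level in the mutant. The added 1 RPKM understates the change of weakly expressed genes.

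The *set-32* strain carried the *ok1457* allele. Beside it, the same table held the *met-2*(*n4256*) *set-25*(*ok5021*) double mutant, the strain that carries all 3 of these mutations (*met-2 set-25;set-32*, called the triple mutant below), and *hrde-1*(*tm1200*). The WT was N2. All 5 samples were whole young adults kept at 19 °C and fed the OP50 strain of *Escherichia coli*. Each strain was represented by 1 library made from pooled animals, so no spread between replicates could be measured, no p-value is given, and a difference between libraries cannot be told apart from a difference between genotypes. All mutant comparisons also shared the 1 WT library.

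SET-32 is a SET-domain protein that acts, with MET-2 and SET-25, in methylation of lysine 9 on histone H3, and it takes part in nuclear RNAi, in which Argonautes such as HRDE-1 carry small RNAs to nascent transcripts in germ cells. A hermaphrodite germline makes sperm during larval life and then switches to oocytes, so sperm transcripts, oocyte transcripts and transcripts used in both (the class named intrinsic in the table) come from different germ cells of one animal. The remaining genes have no germline class and include those of the cuticle-secreting epidermis, the intestine, which makes yolk and digests bacteria, the muscles and the neurons.

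Read counts were not used here. The step between low RPKM values put the depth at about 2.24e+06 counted reads for *set-32* and 2.45e+06 for WT, where 5 RPKM in 1 kb is 11.2 reads in *set-32* and 12.2 in WT. For the 9938 members matched to an annotated coding length, a 95% exact interval of the *set-32* to WT RPKM ratio was computed from the reads so estimated. It covers counting error only, and it is given below as "interval". The *set-32* gene itself, on chromosome I (9519244 to 9521275 in the WBcel235 assembly), had 8.15 RPKM in the *set-32* library, 12.3 in *met-2 set-25*, 5.65 in the triple mutant, 14.5 in *hrde-1* and 12.5 in WT. Both libraries carrying *ok1457* were the lowest for it, but the interval of the ratio between the *set-32* and WT libraries (0.393 to 1.06) included 1, so the level of the gene does not by itself check the label.

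Markers of the labelled stage were present on both sides. The yolk receptor *rme-2* had 403 RPKM in *set-32* and 489 RPKM in WT, and the body wall myosin *unc-54* had 299 RPKM in *set-32* and 280.1 RPKM in WT. A further body wall myosin, *myo-3*, was lower, with 22.94 RPKM in *set-32* and 31.98 RPKM in WT (log2 ratio -0.46, interval 0.619 to 0.831). The body wall muscle gene *unc-15* was slightly higher (log2 ratio 0.16, interval 1.048 to 1.192). Of the neuron markers, *unc-64* was lower (log2 ratio -0.94, interval 0.297 to 0.812) and *flp-1* higher (log2 ratio 0.85, interval 1.194 to 2.888). The interval of *snb-1* included 1. The male neuron genes *pkd-2*, *lov-1* and *cwp-1* were listed at 0 in both libraries. The 1 member of the male-enriched list, the kinesin *klp-6*, had 8.25 RPKM in *set-32*, 4.48 in *met-2 set-25*, 5.70 in the triple mutant, 2.52 in *hrde-1* and 3.88 in WT (log2 ratio 0.92, interval of the RPKM ratio 1.31 to 3.59), the highest of the 5 libraries, and its part in the sperm gene values below was not tested. The early embryonic genes *end-1*, *end-3*, *tbx-37*, *tbx-38* and *pes-1* were all below the member minimum in both. Of the larval and moulting collagens, *dpy-7* had 5.13 RPKM in *set-32* and 3.60 RPKM in WT. *rol-6* had 5.84 RPKM in *set-32* and 6.75 RPKM in WT, and *bli-1* had 0.76 RPKM in *set-32* and 1.67 RPKM in WT. The intervals of these 3 included 1. The more abundant *sqt-3* was higher in *set-32*, with 55.38 RPKM in *set-32* and 35.65 RPKM in WT (log2 ratio 0.62, interval 1.153 to 2.096). In whole animals, fewer cells of a type and less RNA per cell cannot be told apart, and this holds for every germline or tissue group below.

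At least 2-fold higher levels in *set-32* were counted for 423 of the 10092 members (4.19%), and at least 2-fold lower levels for 216 (2.14%). Among members with estimated reads, 294 (2.96%) were at least 2-fold higher with an interval above 1, and 122 (1.23%) were at least 2-fold lower with an interval below 1. With a minimum of 20 RPKM in place of 5, the counts were 161 higher and 69 lower. A ratio of 4-fold or more was seen for 51 members upward and 28 downward. The median log2 ratio of all members was -0.04 (quartiles -0.28 and 0.26), and 45.7% of members were above 0. Since a member needed 5 RPKM in either library, 1009 reached it in 1 library only, 627 of them in *set-32* and 382 in WT, and these held 226 of the 423 and 123 of the 216. The 267 members just inside the minimum (5 to 5.5 RPKM in the higher library) had a median of -0.02, with 21 higher and 20 lower by 2-fold, and the 283 models just outside it (4.5 to 5 RPKM) had a median of 0.15, with 38 higher and 19 lower.

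The 3 other mutants show which of the 2 libraries stood apart. For 359 of the 423 higher genes (84.9%), *set-32* was the highest of the 5 libraries, against 21.7% of all members, and for 231 of them (54.6%) WT was the lowest of the 5, against 17.1% of all members. For the 216 lower genes, *set-32* was the lowest of the 5 for 115 (53.2%), against 26.2% of all members, and WT was the highest of the 5 for 132 (61.1%), against 19.5%. The choice by the *set-32* to WT ratio raises all 4 of these shares, so they are given only to say where each gene sat. Set against a median over the 4 other libraries instead of WT alone, 203 of the 423 and 94 of the 216 were still 2-fold apart.

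Sperm genes were the class with the highest ratios. Of 797 models with the sperm class, 242 were members, with a median log2 ratio of 0.77 (quartiles 0.39 and 1.11), and 210 were above 0. At least 2-fold higher levels were counted for 79 (32.6%, beside 4.19% of all members) and 2-fold lower levels for 2 (0.83%, beside 2.14%). The *set-32* library was the highest of the 5 for 184 of the 242, beside 21.7% of all members. Over the same WT library, the 242 genes had medians of 0.14 for *met-2 set-25*, 0.07 for the triple mutant and -0.42 for *hrde-1*. As a share of all RPKM in a library, sperm-class models made up 1.02% in *set-32*, 0.684% in *met-2 set-25*, 0.633% in the triple mutant, 0.474% in *hrde-1* and 0.587% in WT. Of the 242, 79 reached the minimum in 1 library only, and with no minimum the sperm-class median was 0.34.

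**Figure D1:**
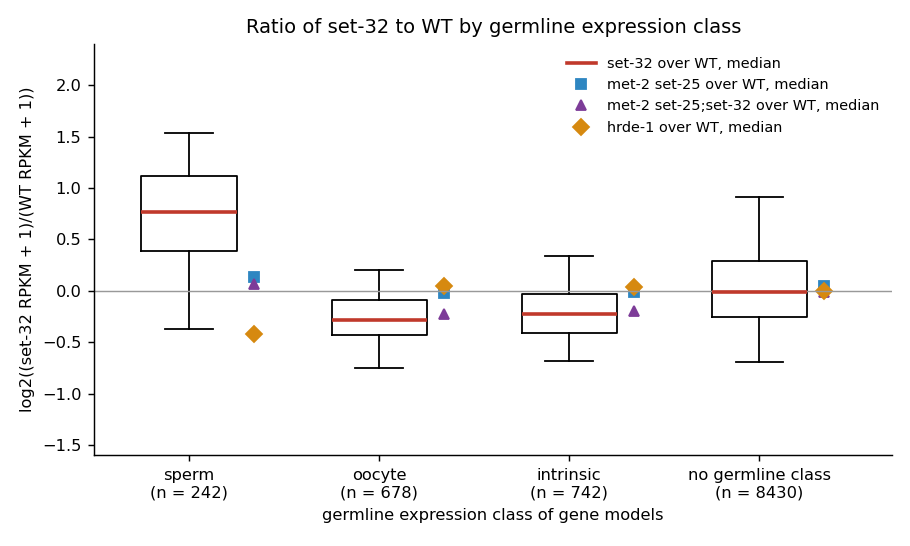
Log2 ratio of set-32 to WT for members of each germline expression class. The red line is the median, the box spans the quartiles and the whiskers the 5th to 95th percentiles over genes, and the squares, triangles and diamonds give the medians of the other mutants over the same WT library. The sperm median of 0.77 lies above the medians of the other classes (-0.28, -0.23 and -0.01), and the sperm medians of the other mutants lie between -0.42 and 0.14.

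The 30 members of the major sperm protein family, the cytoskeletal protein that drives the crawling of nematode sperm and also signals to oocytes, all had ratios above 0. Of these, 28 were at least 2-fold higher (93.3%, beside 4.19% of all members). All 30 were highest in *set-32*. Their copies are nearly identical in sequence, so the split of reads between copies is uncertain. *msp-36* had 138 RPKM in *set-32*, 82.1 in *met-2 set-25*, 74 in the triple mutant, 56.9 in *hrde-1* and 47.2 in WT, a log2 ratio of 1.53 (interval 2.06 to 4.25). *msp-79* had 113 RPKM in *set-32*, 59.5 in *met-2 set-25*, 59.8 in the triple mutant, 40 in *hrde-1* and 41.1 in WT, a log2 ratio of 1.44 (interval 1.90 to 4.18). For both genes the *set-32* library was the highest, the 2 libraries lacking MET-2 and SET-25 lay in the middle, and *hrde-1* and WT were lowest.

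Sperm genes outside that family were also higher. Leaving out *msp*, *ssp* and *nspd* genes, 206 sperm-class members had a median of 0.69. Of these, 50 were at least 2-fold higher (24.3%, beside 4.19% of all members). Of the other small sperm families (22 models), 19 were members, all 19 above 0 with a median of 0.96 and 9 at least 2-fold higher (47.4%). *ssp-11*, of a family of small proteins related to the major sperm proteins, had 70.2 RPKM in *set-32*, 43.2 in *met-2 set-25*, 31.7 in the triple mutant, 26.7 in *hrde-1* and 27.8 in WT (log2 ratio 1.31, interval 1.51 to 4.39). *spch-2*, which packs sperm chromatin, had 30.4 RPKM in *set-32*, 21.2 in *met-2 set-25*, 26.1 in the triple mutant, 9.52 in *hrde-1* and 13.6 in WT (log2 ratio 1.11, interval 1.28 to 4.04). The protein phosphatase gene *gsp-3*, needed for sperm meiosis and motility, had 17.7 RPKM in *set-32*, 12.2 in *met-2 set-25*, 11.5 in the triple mutant, 8.99 in *hrde-1* and 8.08 in WT (log2 ratio 1.04, interval 1.21 to 4.09). In each of these 3 genes *set-32* was the highest library, and the gap to the next library was smallest for *spch-2*.

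Few genes of sperm function outside these families reached the minimum. Of 41 *spe* and *fer* genes and other genes of sperm function, only 14 reached the minimum, with a median of 0.72. Of these, 2 were at least 2-fold higher (14.3%, beside 4.19% of all members). The list's median was 0.20 with no minimum, 0.39 with a minimum of 1 RPKM and 0.20 with 20 RPKM. *spe-44*, a transcription factor that switches on the spermatogenesis programme, had 8.82 RPKM in *set-32*, 13.1 in *met-2 set-25*, 13.9 in the triple mutant, 15.3 in *hrde-1* and 15.3 in WT (log2 ratio -0.73, interval 0.337 to 0.943), the lowest of the 5 libraries. The 13 members among the sperm-fate genes and sperm Argonautes had a median of -0.20, with 4 above 0 and none past 2-fold, and the median was -0.03 with a minimum of 1 RPKM. They included *fem-2*, a phosphatase of the sex determination pathway, with 105.8 RPKM in *set-32* and 84.8 RPKM in WT (interval 1.06 to 1.47), *fem-3*, which specifies the male fate, with 36.7 RPKM in *set-32* and 54.6 RPKM in WT, and *puf-8*, a Pumilio-family RNA-binding protein of the sperm to oocyte switch, with 49.2 RPKM in *set-32* and 73.3 RPKM in WT.

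Oocyte and intrinsic genes were slightly lower. The 678 oocyte-class members, of 694 models, had a median of -0.28 (quartiles -0.43 and -0.09), and 98 were above 0. Only 1 was at least 2-fold higher (0.15%, beside 4.19% of all members) and 11 were at least 2-fold lower (1.62%, beside 2.14%). Counting intervals were below 1 for 277, beside 16.2% of all members with reads. The 742 intrinsic members, of 901 models, had a median of -0.23 (quartiles -0.41 and -0.03), with intervals below 1 for 226. Of these members, 7 were past 2-fold in each direction (0.94% each, also below the shares of all members). The *set-32* library was the lowest of the 5 for 333 of the 678 oocyte and 319 of the 742 intrinsic members, beside 26.2% of all members. For the oocyte members, the medians over WT were -0.02 for *met-2 set-25*, -0.23 for the triple mutant and 0.05 for *hrde-1*. For the intrinsic members they were -0.01 for *met-2 set-25*, -0.19 for the triple mutant and 0.03 for *hrde-1*. The oocyte class took 5.05% of all RPKM in *set-32*, 6.07% in *met-2 set-25*, 5.23% in the triple mutant, 6.54% in *hrde-1* and 6.22% in WT.

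RPKM are relative to the total of a library, so the ratios were also centred on the median of all members, and the oocyte median was then -0.24 and the intrinsic median -0.18. Lists of germline function had medians of a like size. The median was -0.27 for 27 meiotic prophase genes (5 above 0), -0.22 for 26 genes of DNA replication and the mitotic cycle (4 above 0), -0.22 for 14 P granule genes (3 above 0) and -0.21 for 32 eggshell and egg activation genes (4 above 0). No gene of these 4 lists was past 2-fold in either direction.

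Individual genes of these lists were lower by small amounts. *cey-2*, a Y-box RNA-binding protein of the germline, had 1728 RPKM in *set-32*, 2307 in *met-2 set-25*, 1719.7 in the triple mutant, 2238 in *hrde-1* and 2515 in WT (log2 ratio -0.54, interval 0.657 to 0.719). *spn-4*, an RNA-binding protein supplied to the embryo by the oocyte, had 433 RPKM in *set-32*, 607 in *met-2 set-25*, 487 in the triple mutant, 631 in *hrde-1* and 614 in WT (log2 ratio -0.50, interval 0.650 to 0.763). *zhp-3*, which marks meiotic crossovers, had 28.1 RPKM in *set-32*, 38.5 in *met-2 set-25*, 35.1 in the triple mutant, 48.9 in *hrde-1* and 50.3 in WT (log2 ratio -0.82, interval 0.413 to 0.740). Both libraries with *ok1457* were the lowest 2 of the 5 in each of these genes.

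The eggshell permeability barrier genes *perm-2* and *perm-4* went the other way, while 28 of the 32 eggshell and egg activation genes were below 0. *perm-2* had 1053 RPKM in *set-32*, 866 in *met-2 set-25*, 963 in the triple mutant, 839.7 in *hrde-1* and 667 in WT (log2 ratio 0.66, interval 1.46 to 1.71). *perm-4* had 846 RPKM in *set-32*, 712 in *met-2 set-25*, 812 in the triple mutant, 628 in *hrde-1* and 517 in WT (log2 ratio 0.71, interval 1.52 to 1.76). WT was the lowest library for both, and neither has a germline class in the table.

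**Figure D2:**
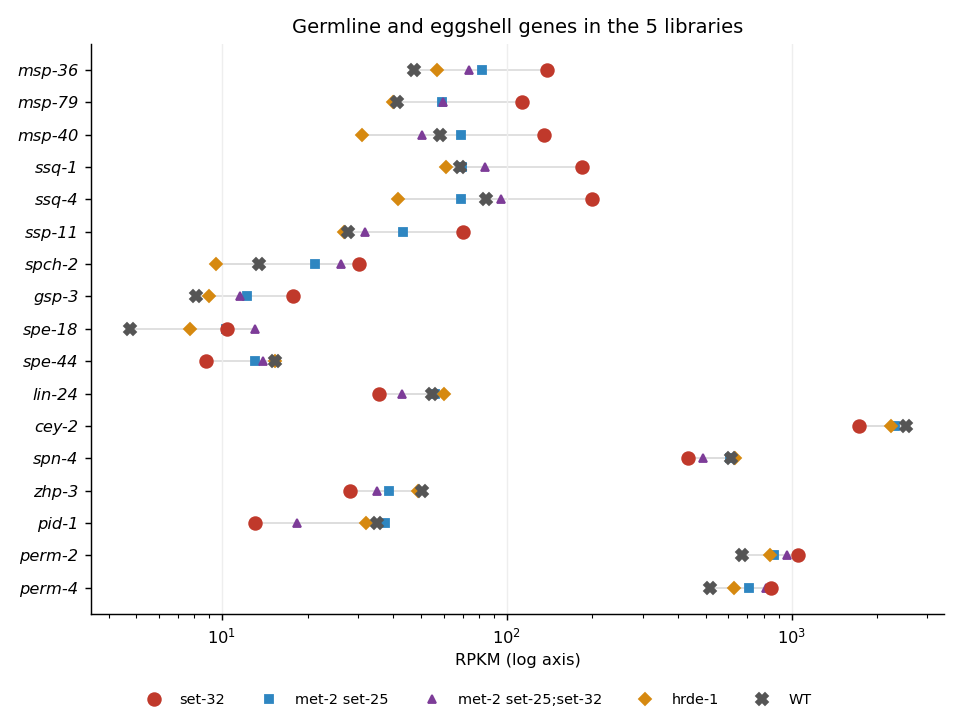
RPKM (log axis) of 17 germline and eggshell genes, with 1 point for each of the 5 libraries and no error bars because each genotype had 1 library. The red set-32 points lie furthest right for the sperm genes from msp-36 to gsp-3, and furthest left for spe-44, lin-24, spn-4, zhp-3 and pid-1.

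Genes of the small RNA pathways were among the lower germline lists. Of 35 such genes, 34 were members, with a median of -0.33, and 2 were above 0. Intervals were below 1 for 18 of the 34, beside 16.2% of all members with reads. The *set-32* library was the lowest of the 5 for 21 of the 34, beside 26.2% of all members. Their medians over WT were -0.02 for *met-2 set-25*, -0.16 for the triple mutant and 0.12 for *hrde-1*. The 1 gene of this list past 2-fold was *pid-1* (chromosome II, 7689681 to 7690556 in WBcel235), required for piRNA production, with 13.1 RPKM in *set-32*, 37.4 in *met-2 set-25*, 18.3 in the triple mutant, 31.9 in *hrde-1* and 35.1 in WT (log2 ratio -1.36, interval 0.193 to 0.683). Both libraries with *ok1457* were low and the 3 others lay between 31.9 and 37.4 RPKM. The mutator focus scaffold *mut-16* had 27.3 RPKM in *set-32* and 41.0 RPKM in WT (log2 ratio -0.57), and the germ granule helicase *znfx-1* had 11.5 RPKM in *set-32* and 18.4 RPKM in WT (log2 ratio -0.63). Outside this list, the worm-specific Argonaute *wago-5*, an intrinsic gene, had 9.54 RPKM in *set-32*, 12.5 in *met-2 set-25*, 15.8 in the triple mutant, 14.2 in *hrde-1* and 22.5 in WT (log2 ratio -1.16, interval 0.305 to 0.573), so here WT stood furthest from the rest. *hrde-1* itself had 178 RPKM in *set-32* and 228 RPKM in WT. Of the histone methyltransferase and heterochromatin genes, 24 were members with a median of -0.18 and none past 2-fold, and *cec-4*, which anchors methylated chromatin to the nuclear edge, had 35.4 RPKM in *set-32* and 55.6 RPKM in WT.

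Among the intrinsic and oocyte genes with the lowest ratios were several of unknown or F-box function. *Y11D7A.7* had 8.31 RPKM in *set-32*, 3.23 in *met-2 set-25*, 8.64 in the triple mutant, 37.9 in *hrde-1* and 37.9 in WT (log2 ratio -2.06, interval 0.0941 to 0.453). *F42A9.6* had 19.8 RPKM in *set-32*, 13.7 in *met-2 set-25*, 50.6 in the triple mutant, 72.7 in *hrde-1* and 79.8 in WT (log2 ratio -1.96, interval 0.153 to 0.399). *fbxa-192*, an F-box gene, had 1.5 RPKM in *set-32*, 0.80 in *met-2 set-25*, 2.01 in the triple mutant, 14.7 in *hrde-1* and 9.95 in WT (log2 ratio -2.13, interval 0.0386 to 0.430). In *Y11D7A.7* and *fbxa-192* the 3 libraries lacking a histone methyltransferase were low and *hrde-1* and WT were high, whereas in *F42A9.6* the triple mutant lay nearer to *hrde-1* and WT.

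The 8430 members with no germline class had a median of -0.01 (quartiles -0.25 and 0.29), and 336 were at least 2-fold higher (3.99%, beside 4.19% of all members) and 196 at least 2-fold lower (2.33%, beside 2.14%), so as a whole they were close to all members. They were sorted by somatic function into lists, shown together in the plot of list medians.

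**Figure D3:**
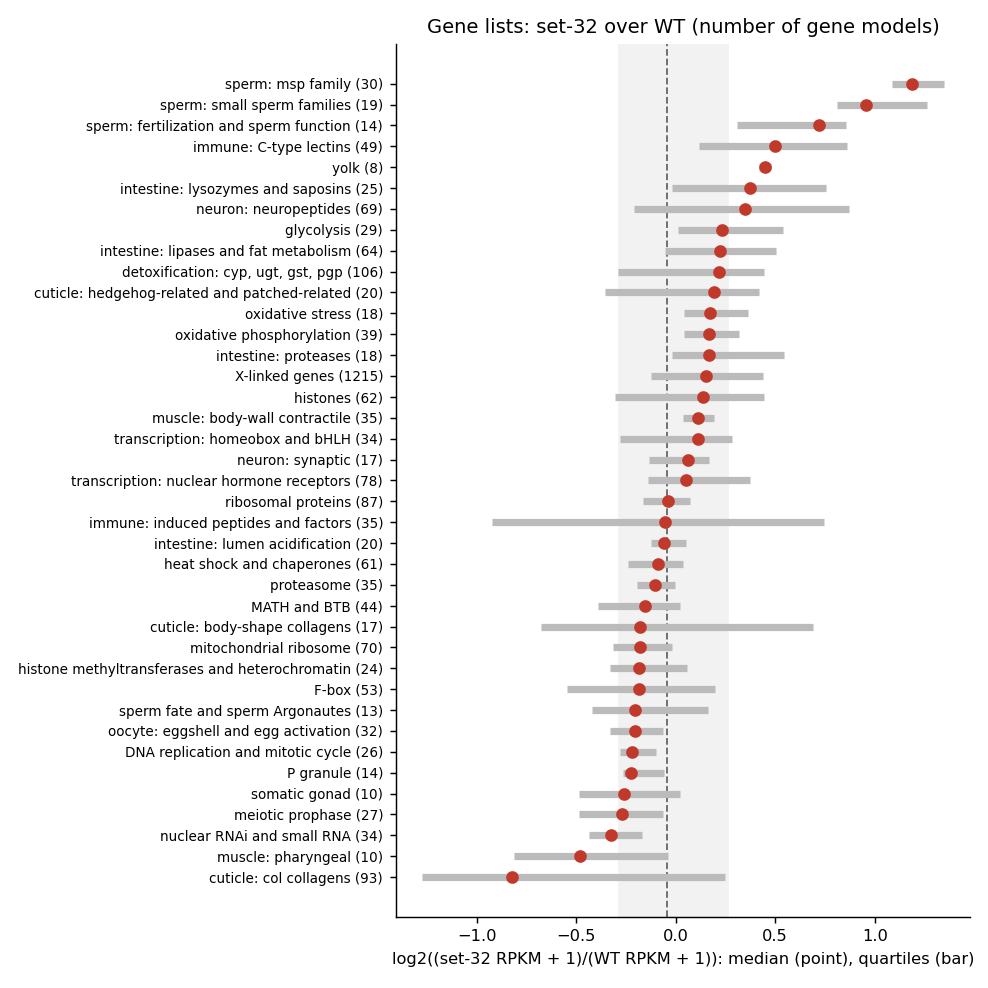
Median (red point) and quartiles (grey bar) of the log2 ratio of set-32 to WT for each gene list with 8 or more members, with the number of members after the name. The dashed line and the pale band are the median (-0.04) and quartiles of all 10092 members. Sperm families lie at the top, and the col collagens (-0.82) and the pharyngeal muscle list (-0.48), which also holds gland genes, at the bottom.

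Cuticle collagens were the somatic list with the most genes past 2-fold. They are secreted by the epidermis and a fresh set is used at each moult. Of 160 *col* genes, 93 were members, with a median of -0.82. Of these, 40 were at least 2-fold lower (43.0%, beside 2.14% of all members) and 3 at least 2-fold higher (3.23%, beside 4.19%). The medians of the same genes over WT were -0.31 for *met-2 set-25*, 0.13 for the triple mutant and -1.23 for *hrde-1*. WT was the highest of the 5 libraries for 35 of the 93 (beside 19.5% of all members) and *set-32* was the lowest for 10 (beside 26.2%). Against the median of the 4 other libraries in place of WT, the list's median was -0.41. The summed level nevertheless was higher in *set-32*, 56528 RPKM, than in *met-2 set-25* (41049), the triple mutant (51496), *hrde-1* (33310) or WT (45351).

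The list fell into 2 ranges of level, where level is the median RPKM of the 3 other mutants, which the ratio does not use. The boundary of 450 RPKM was chosen after the values were seen. All 23 collagens at or above it were higher in *set-32* (log2 ratio 0.05 to 0.86, median 0.46). Of the 70 below it, 7 were above 0, the median was -1.07, and 50 intervals were below 1. Split instead into 3 groups of 31 by the same level, the medians were -1.11 in the lowest (2.11 to 17.8 RPKM), -0.95 in the middle (19.7 to 77.6 RPKM) and 0.40 in the highest (91.8 to 3320 RPKM).

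*col-184*, an abundant X-linked collagen, had 2797 RPKM in *set-32*, 1495 in *met-2 set-25*, 1943 in the triple mutant, 1433 in *hrde-1* and 1665 in WT (log2 ratio 0.75, interval 1.61 to 1.75), the highest of the 5 libraries. *col-81* (chromosome II, 11012397 to 11013767 in WBcel235) had 204 RPKM in *set-32*, 369.6 in *met-2 set-25*, 273 in the triple mutant, 208 in *hrde-1* and 799 in WT (log2 ratio -1.97, interval 0.229 to 0.284). *col-162* had 21.2 RPKM in *set-32*, 45.1 in *met-2 set-25*, 48.7 in the triple mutant, 11.9 in *hrde-1* and 85.1 in WT (log2 ratio -1.95, interval 0.171 to 0.348). For *col-81* and *col-162* every mutant was below WT, and *set-32* and *hrde-1* were the lowest 2.

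**Figure D4:**
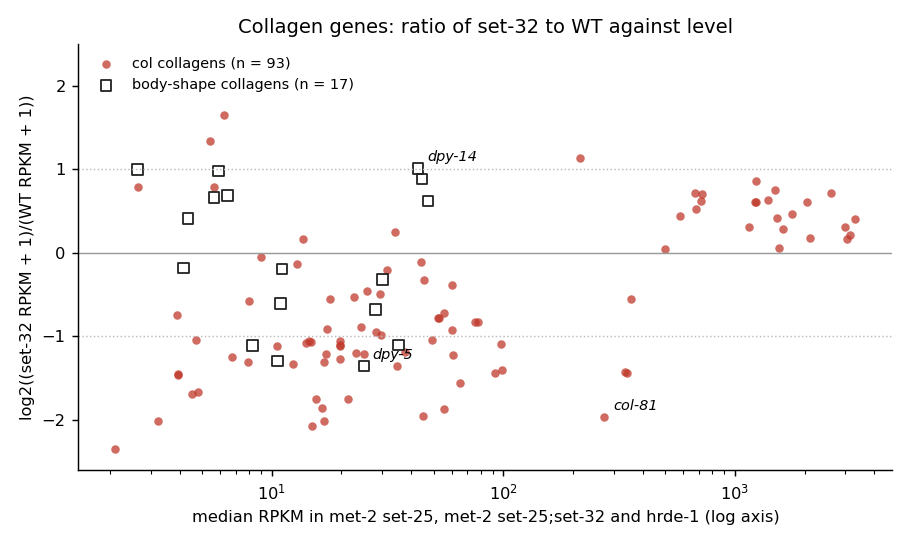
Log2 ratio of set-32 to WT (vertical) against the median RPKM of the 3 other mutants (horizontal, log axis) for 93 col collagens (points) and 17 body-shape collagens (squares), with dotted lines at 2-fold. All 23 col collagens at 450 RPKM or more lie above 0, and most of those at lower levels lie below 0.

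The body-shape collagens, whose mutants are dumpy, roller or otherwise misshapen, were split. Of 22, 17 were members, with a median of -0.18. Of these, 1 was at least 2-fold higher (5.88%, beside 4.19% of all members) and 4 at least 2-fold lower (23.5%, beside 2.14%). *dpy-5* had 18.6 RPKM in *set-32*, 25 in *met-2 set-25*, 78.8 in the triple mutant, 11.1 in *hrde-1* and 49.3 in WT (log2 ratio -1.36, interval 0.254 to 0.564). *rol-1* had 4.94 RPKM in *set-32*, 10.6 in *met-2 set-25*, 22.9 in the triple mutant, 2.65 in *hrde-1* and 13.5 in WT (log2 ratio -1.29, interval 0.185 to 0.651). *dpy-14* had 57.8 RPKM in *set-32*, 42.8 in *met-2 set-25*, 57.1 in the triple mutant, 35.1 in *hrde-1* and 28.2 in WT (log2 ratio 1.01, interval 1.51 to 2.79). The first 2 ordered the libraries alike, with the triple mutant highest, WT next and *hrde-1* lowest, whereas for *dpy-14* WT was lowest. *noah-2*, a zona pellucida domain protein of the apical matrix, had 15.7 RPKM in *set-32*, 7.75 in *met-2 set-25*, 13.9 in the triple mutant, 12.6 in *hrde-1* and 4.52 in WT (log2 ratio 1.60, interval 2.15 to 5.59). *nas-3*, an astacin metalloprotease, had 14.2 RPKM in *set-32* and 2.59 RPKM in WT (log2 ratio 2.08, interval 2.08 to 15.1). WT was the lowest of the 5 libraries for both. The body-shape median of *set-32* over WT turned to 0.15 with a minimum of 1 RPKM. The medians of the same list over WT were -0.14 for *met-2 set-25*, 0.99 for the triple mutant and -0.69 for *hrde-1*. Collagen transcripts cycle with the moult, and the age of the animals within young adulthood was not tested as a part of these values.

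Muscle genes divided by organ. Of 37 body wall contractile genes, 35 were members, with a median of 0.11, 30 above 0 and none past 2-fold. Intervals were above 1 for 11 of them and below 1 for 2, and the lowest ratio was that of *myo-3* (log2 ratio -0.46). The actin *act-4* had 574 RPKM in *set-32*, 460.5 in *met-2 set-25*, 597 in the triple mutant, 418 in *hrde-1* and 397 in WT for its more abundant model (log2 ratio 0.53). The list of the pharynx holds muscle genes and also genes of a pharyngeal gland family. Its 10 members, of 19, had a median of -0.48, with 3 above 0. *tnt-4*, the troponin T of the pharynx, had 31.1 RPKM in *set-32*, 41.6 in *met-2 set-25*, 44.9 in the triple mutant, 26.5 in *hrde-1* and 63.6 in WT (log2 ratio -1.01, interval 0.363 to 0.646). *myo-2*, a pharyngeal myosin heavy chain, had 15 RPKM in *set-32*, 23.1 in *met-2 set-25*, 22.9 in the triple mutant, 16.7 in *hrde-1* and 27.1 in WT (log2 ratio -0.82, interval 0.464 to 0.660). WT was the highest of the 5 for both genes and for 5 of the 10, while 2 genes of a pharyngeal gland family had intervals above 1. Of these, *phat-6* had 16.6 RPKM in *set-32* and 7.57 RPKM in WT (log2 ratio 1.04, interval 1.07 to 5.20), and *phat-3*, chosen after its values were seen, had 35.8 RPKM in *set-32* and 22.7 RPKM in WT (log2 ratio 0.63, interval 1.06 to 2.44). The median of the pharyngeal list was -0.80 with a minimum of 20 RPKM and -0.19 against the median of the 4 other libraries.

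Yolk and fat metabolism genes, both of the intestine, were mostly higher. All 8 yolk protein (vitellogenin) models were above 0, with a median of 0.45 and none past 2-fold. They summed to 13649 RPKM in *set-32*, 9202 in *met-2 set-25*, 11851 in the triple mutant, 12159 in *hrde-1* and 9909 in WT, so *hrde-1* and the triple mutant were also above WT. These sums include both isoform models of *vit-2* and both of *vit-6*, so they count reads of these genes more than once and are not the level of yolk transcripts. Reads of *vit* genes that are alike in sequence may also be split between them. Of 64 fat metabolism members, 45 were above 0 with a median of 0.22. At least 2-fold higher levels were counted for 6 (9.38%, beside 4.19% of all members) and lower levels for 0 (beside 2.14%). *acdh-2*, an acyl-CoA dehydrogenase gene (chromosome II, 5544778 to 5547492 in WBcel235), had 87.8 RPKM in *set-32*, 16.9 in *met-2 set-25*, 55.0 in the triple mutant, 22.4 in *hrde-1* and 23.1 in WT for its more abundant model (log2 ratio 1.88, interval 2.80 to 5.32). *acs-2*, an acyl-CoA synthetase of mitochondrial fat oxidation, had 34.9 RPKM in *set-32*, 5.14 in *met-2 set-25*, 24.5 in the triple mutant, 37.2 in *hrde-1* and 11.4 in WT (log2 ratio 1.54, interval 2.21 to 4.27). *acox-1.2*, a peroxisomal acyl-CoA oxidase, had 22.5 RPKM in *set-32*, 5.11 in *met-2 set-25*, 14.4 in the triple mutant, 9.91 in *hrde-1* and 8.77 in WT (log2 ratio 1.26, interval 1.76 to 3.73). For *acdh-2* and *acox-1.2* both libraries with *ok1457* were the highest 2, whereas for *acs-2* the *hrde-1* library was highest.

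Enzymes of sugar and energy metabolism were also mostly above 0. Of 29 members of the glycolysis and gluconeogenesis list, 22 were above 0, with a median of 0.23 and none past 2-fold. The *set-32* library was the highest of the 5 for 18 of the 29, beside 21.7% of all members. Lactate dehydrogenase *ldh-1* had 261 RPKM in *set-32*, 91.3 in *met-2 set-25*, 185 in the triple mutant, 115 in *hrde-1* and 135 in WT (log2 ratio 0.94, interval 1.69 to 2.22). *pck-1*, the phosphoenolpyruvate carboxykinase of gluconeogenesis, had 62.7 RPKM in *set-32*, 26.9 in *met-2 set-25*, 27.9 in the triple mutant, 28.4 in *hrde-1* and 31.6 in WT (log2 ratio 0.96, interval 1.62 to 2.44). In both, *set-32* was highest, and for *pck-1* the 4 other libraries lay between 26.9 and 31.6 RPKM. Of the 39 nuclear-encoded oxidative phosphorylation genes, 32 were above 0, with a median of 0.17.

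The digestive proteases differed in both directions. Of 18 members, 3 were at least 2-fold higher (16.7%, beside 4.19% of all members) and 2 at least 2-fold lower (11.1%, beside 2.14%). *asp-13*, an aspartyl protease, had 336 RPKM in *set-32*, 209 in *met-2 set-25*, 304 in the triple mutant, 204 in *hrde-1* and 166 in WT (log2 ratio 1.01, interval 1.81 to 2.27). *asp-12*, of the same family, had 15.7 RPKM in *set-32*, 53.8 in *met-2 set-25*, 33.9 in the triple mutant, 277 in *hrde-1* and 52.1 in WT (log2 ratio -1.67, interval 0.211 to 0.431). *cpr-5*, a cathepsin B-like cysteine protease, had 149 RPKM in *set-32*, 223 in *met-2 set-25*, 234 in the triple mutant, 345 in *hrde-1* and 304 in WT (log2 ratio -1.03, interval 0.430 to 0.557). Both of the lower genes were lowest in *set-32* and highest in *hrde-1*. The metallothionein *mtl-2*, which binds heavy metals in the intestine, had 339.5 RPKM in *set-32*, 128 in *met-2 set-25*, 139 in the triple mutant, 194 in *hrde-1* and 118 in WT (log2 ratio 1.51, interval 2.09 to 3.98).

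Genes of immune defence and detoxification were mixed. C-type lectins are a family of carbohydrate-binding proteins, many of which respond to pathogens. Of 259 such genes, 49 were members, with a median of 0.50 and 40 above 0. At least 2-fold higher levels were counted for 9 (18.4%, beside 4.19% of all members) and lower levels for 3 (6.12%, beside 2.14%). The medians of these genes over WT were 0.56 for *met-2 set-25*, 0.60 for the triple mutant and 0.07 for *hrde-1*. WT was the lowest of the 5 for 20 of the 49, beside 17.1% of all members. Against the median of the 4 other libraries the list's median was 0.20. *clec-266* (X chromosome) had 73.0 RPKM in *set-32*, 25.4 in *met-2 set-25*, 25 in the triple mutant, 45 in *hrde-1* and 15 in WT (log2 ratio 2.21, interval 3.13 to 8.15). *clec-190* had 29.7 RPKM in *set-32*, 13.3 in *met-2 set-25*, 27.2 in the triple mutant, 9.46 in *hrde-1* and 5.43 in WT (log2 ratio 2.26, interval 2.77 to 13.3). *clec-63*, among the most abundant lectin genes, had 694 RPKM in *set-32*, 1016 in *met-2 set-25*, 1134 in the triple mutant, 474 in *hrde-1* and 480.1 in WT (log2 ratio 0.53). For *clec-63* the other methyltransferase mutants were above *set-32*, and for *clec-266* they were below it.

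Other defence lists gave no single direction. The 35 induced peptides and immune factors had a median of -0.05, with 6 at least 2-fold higher (17.1%, beside 4.19% of all members) and 8 at least 2-fold lower (22.9%, beside 2.14%), and 10 of the 35 reached the minimum in 1 library only. Of 25 lysozyme and saposin genes, 18 were above 0 with a median of 0.37, and the 1 past 2-fold was *lys-5*, with 32.3 RPKM in *set-32*, 51.2 in *met-2 set-25*, 37.8 in the triple mutant, 31.7 in *hrde-1* and 71.4 in WT (log2 ratio -1.12, interval 0.317 to 0.645). Of 106 detoxification members, 5 were at least 2-fold higher and 2 at least 2-fold lower, close to the shares among all members. *dhs-25*, a short-chain dehydrogenase, had 319 RPKM in *set-32*, 101 in *met-2 set-25*, 226 in the triple mutant, 129.7 in *hrde-1* and 124 in WT (log2 ratio 1.35, interval 2.20 to 3.02). *ugt-19*, a glucuronosyltransferase, had 4.11 RPKM in *set-32*, 8.18 in *met-2 set-25*, 8.11 in the triple mutant, 9.02 in *hrde-1* and 16.4 in WT (log2 ratio -1.77, interval 0.136 to 0.455). The 61 heat shock and chaperone members had a median of -0.09, with 3 at least 2-fold higher (4.92%, beside 4.19% of all members). Of these 3, *hsp-16.48* and *hsp-16.49* had identical values, from 15 reads in *set-32* and 6 in WT.

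**Figure D5:**
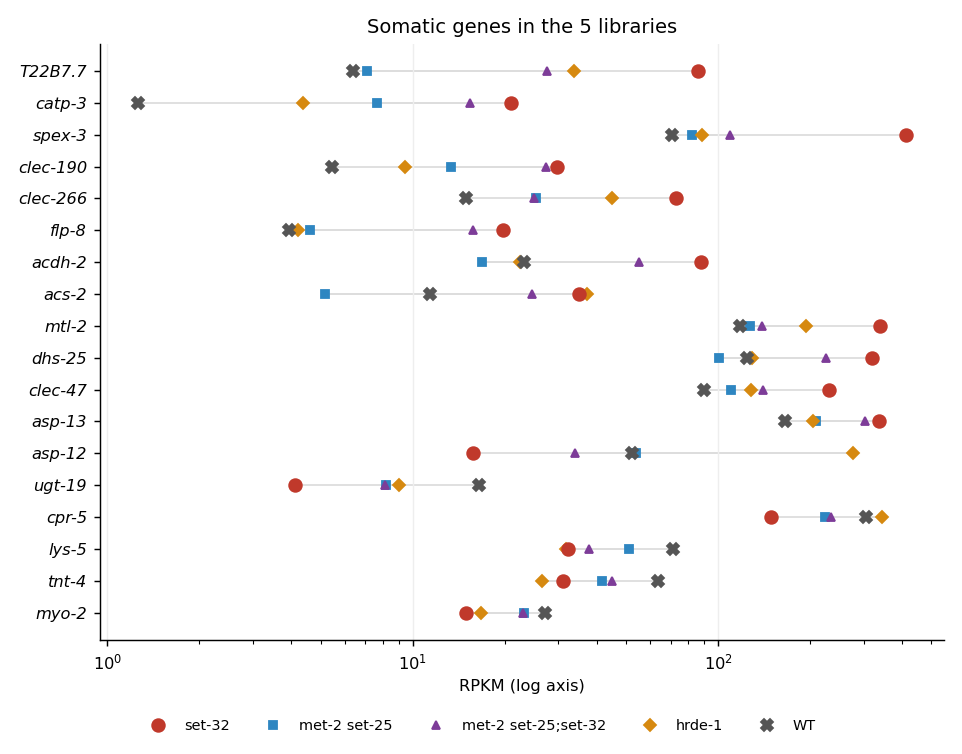
RPKM (log axis) of 18 genes with no germline class, with 1 point for each of the 5 libraries and no error bars because each genotype had 1 library. In the upper genes, from T22B7.7 to asp-13, the red set-32 point lies furthest right except for acs-2, where hrde-1 lies slightly further right. In the lower genes set-32 lies left of WT.

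Neuropeptide genes were higher in part. Of 146, 69 were members, with a median of 0.35. At least 2-fold higher levels were counted for 14 (20.3%, beside 4.19% of all members) and lower levels for 2 (2.90%, beside 2.14%). Of the 69, 16 reached the minimum in 1 library only, and intervals were above 1 for 8. Over WT, the medians of the 69 were 0.20 for *met-2 set-25*, 0.41 for the triple mutant and -0.01 for *hrde-1*. WT was the lowest of the 5 libraries for 23 of them, beside 17.1% of all members. *flp-8*, of the FMRFamide-like peptides, had 19.8 RPKM in *set-32*, 4.60 in *met-2 set-25*, 15.7 in the triple mutant, 4.21 in *hrde-1* and 3.92 in WT (log2 ratio 2.08, interval 1.62 to 20). *ins-13*, of the insulin-like peptides, had 34.8 RPKM in *set-32*, 12 in *met-2 set-25*, 24.4 in the triple mutant, 11.7 in *hrde-1* and 9.50 in WT (log2 ratio 1.77, interval 1.32 to 12.9). In both genes the 2 libraries with *ok1457* were above the 3 others. The 17 synaptic members had a median of 0.06. *tbh-1*, which makes octopamine in neurons and in the gonad sheath, was the 1 past 2-fold, with 152 RPKM in *set-32*, 101 in *met-2 set-25*, 114 in the triple mutant, 111 in *hrde-1* and 72.2 in WT (log2 ratio 1.06, interval 1.84 to 2.4). The enzyme before it in that pathway, *tdc-1*, had 131 RPKM in *set-32* and 133 RPKM in WT. None of 34 ciliary genes and 3 of 1307 chemoreceptor genes reached the minimum, so sensory neurons could not be described at this depth.

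Of the lists not described above, the 18 oxidative stress members had a median of 0.17 and the 20 hedgehog-related and patched-related members 0.19. The remaining lists of this paragraph had medians between -0.26 and 0.14. The 10 somatic gonad members had a median of -0.26 with 3 above 0, and the 70 mitochondrial ribosome members -0.18 with 17 above 0. The 87 ribosomal protein members had a median of -0.04 and the 35 proteasome members -0.11, with none past 2-fold in either. Among 62 histone members the median was 0.14, with 0 at least 2-fold higher and 6 lower (9.68%, beside 2.14% of all members). All 6 were core histone copies with at most 18 estimated reads in WT. Counting models with identical values once left 47 histone models. Over WT, the histone medians were 0.18 for *met-2 set-25*, -0.32 for the triple mutant and 0.14 for *hrde-1*. At least 2-fold lower were 0, 15 and 3 of the 62 in these mutants. The linker histone *his-24* had 210.5 RPKM in *set-32*, 106 in *met-2 set-25*, 155 in the triple mutant, 150.1 in *hrde-1* and 110.1 in WT (log2 ratio 0.93, interval 1.58 to 2.33). The 53 F-box members had a median of -0.19, with 3 at least 2-fold higher (5.66%) and 6 lower (11.3%), beside 4.19% and 2.14% of all members. The 78 nuclear hormone receptors had a median of 0.05, with 4 higher (5.13%) and 2 lower (2.56%), close to the shares of all members. In that receptor family, *nhr-144* was estimated at 16 reads in *set-32* and 0 in WT, and the lower limit of its interval was 4.22. The table also marked 2 lists of nuclear RNAi targets. Those marked for heterochromatin had a median of -0.04 over 91 members, with 8 higher (8.79%) and 4 lower (4.40%) by 2-fold, and those marked for transcriptional silencing had a median of 0.14 over 22 members, with 2 higher (9.09%) and 1 lower (4.55%), beside 4.19% and 2.14% of all members.

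The X chromosome stood above the autosomes in its median. Its 1215 members had a median of 0.15, while the medians of the autosomes lay between -0.09 and -0.03. Of its members, 786 (64.7%, beside 45.7% of all members) were above 0. At least 2-fold higher levels were counted for 66 (5.43%) and lower levels for 32 (2.63%), beside 4.19% and 2.14% of all members. The share at least 2-fold higher was 6.15% on chromosome IV and 5.02% on chromosome V, so these counts did not set the X apart. The X carries few germline-class genes and no sperm-class model among those placed on a chromosome. Among genes with no class, the median was 0.15 for 1172 X-linked members and -0.03 for 7117 autosomal ones. The 21 X-linked oocyte-class members also had a median of 0.15, against -0.29 for 652 autosomal ones. For the intrinsic class, 22 X-linked members had a median of 0.06, with 12 above 0, against -0.23 for 713 autosomal ones. Over WT, the X-linked members had medians of 0.08 for *met-2 set-25*, 0.08 for the triple mutant and -0.02 for *hrde-1*.

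The highest ratio of all was that of *K08C9.7*, with 36.5 RPKM in *set-32*, from 44 estimated reads, and listed at 0 in the 4 other libraries. *T22B7.7* (X chromosome) had 85.8 RPKM in *set-32*, 7.08 in *met-2 set-25*, 27.5 in the triple mutant, 33.7 in *hrde-1* and 6.35 in WT (log2 ratio 3.56, interval 8.50 to 23.6). *timm-17B.2*, an intrinsic gene, had 204 RPKM in *set-32*, 9.65 in *met-2 set-25*, 113 in the triple mutant, 442 in *hrde-1* and 17.4 in WT (log2 ratio 3.48, interval 7.19 to 20.1). The last 2 were higher in *set-32*, the triple mutant and *hrde-1* than in *met-2 set-25* and WT. The lowest ratio was that of *F08B4.3*, also intrinsic, listed at 0 in *set-32*, with 6.21 RPKM in *met-2 set-25*, 6.65 in the triple mutant, 7.11 in *hrde-1* and 18.6 in WT (0 estimated reads in *set-32* and 30 in WT). *catp-3*, a gene for a cation-transporting ATPase (chromosome V, 8076012 to 8079916 in WBcel235), had 20.9 RPKM in *set-32*, 7.66 in *met-2 set-25*, 15.4 in the triple mutant, 4.38 in *hrde-1* and 1.26 in WT (log2 ratio 3.28, interval 8.56 to 34.5). *spex-3* (chromosome III, 1701712 to 1702437) had 413 RPKM in *set-32*, 82.5 in *met-2 set-25*, 109 in the triple mutant, 88.5 in *hrde-1* and 70.4 in WT (log2 ratio 2.54, interval 4.05 to 8.54). For *spex-3* the *set-32* library stood alone and the 4 others lay within 70.4 to 109 RPKM, whereas for *catp-3* WT was lowest and every mutant was above it. Other genes among the 25 highest rested on few reads. *K07C5.13* had 11.2 RPKM in *set-32*, from 6 reads, and was listed at 0 in the 4 other libraries.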

How the data were processed

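The authors made poly(A)-selected mRNA libraries, aligned single-end reads with Bowtie 0.12.7 (named in the submitters' processing notes), kept perfect alignments, divided reads with several alignments among them, and deposited RPKM per gene model; the strand used in counting is not given in the sources used here. The other deposited columns used here are labels of germline class and nuclear RNAi target list; 0 columns of sample values were left out.

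A log2 ratio with a pseudocount of 1 RPKM was computed over members (5 RPKM or more in the higher library), with 2-fold as the rule of size. Model names matched the Ensembl 115 annotation (WBcel235) for 20315 of 20911 models. WBcel235 coordinates were taken from that annotation, and not from the authors' older build. Reads were estimated from the spacing of low RPKM values and the coding length: 49.3% of low *set-32* values were whole within 0.1 of a read, where 20% would be by chance, so they are approximate. Intervals are 95% Clopper-Pearson intervals. Scripts used Python 3.11.15, pandas 2.3.3, numpy 2.4.6, scipy 1.17.1 and matplotlib 3.10.9, and were tested on simulated data.

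Members, gene lists and tests were chosen with earlier results of these data known. Genes were named by rule: the mutated genes and *oma-1*, the 25 highest and 25 lowest ratios with an interval excluding 1, the 8 highest and 8 lowest of each germline class, and per list up to 4 by ratio and 2 by level. Others are said to be chosen after their values were seen, or are stage markers or members of a named family.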

Additional observations from a re-analysis of the deposited data

How the results depend on the processing

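Each genotype had 1 library, so no replicate could be left out. No paired analysis was possible because no group had a second sample. What depth limits is the genes near 5 RPKM, which rest on about 11 reads per kb. Counts of 2-fold genes depended on the minimum and the pseudocount. The 423 higher genes became 179 with a pseudocount of 5, 951 with a minimum of 1 RPKM, 161 with 20 RPKM, 951 with no minimum and 274 against the median of the 4 other libraries. The 216 lower genes became 85, 633, 69, 633 and 111 under the same settings, and 143 with membership by the mean of both libraries. The sperm median of 0.77 was 0.84 with a pseudocount of 0.1, 0.56 with 5, 0.48 with a minimum of 1 RPKM, 0.96 with 20 RPKM and 0.34 with no minimum. The oocyte median of -0.28 was -0.24 after rescaling the ratios to a member median of 0 and -0.23 against the median of the 4 others. The intrinsic median of -0.23 was -0.20 with a pseudocount of 5, -0.17 with no minimum, -0.18 after rescaling and -0.17 against the 4 others. The median of genes with no class, -0.01, was 0.0155 with a minimum of 1 RPKM, -0.0493 with 20 RPKM, 0.0352 after rescaling and -0.0306 without the X chromosome.

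Of 369 list medians recomputed over 41 lists, 352 stayed within the 95% order-statistic interval of the list's median. Against the median of the 4 others, the *msp* family had 1.07, yolk 0.36, C-type lectins 0.20, *col* collagens -0.41, the mitochondrial ribosome -0.0859, oxidative phosphorylation 0.0677 and X-linked genes 0.10. With no minimum, lysozymes and saposins had 0.0709, C-type lectins 0.00, *col* collagens -0.26, neuropeptides 0.0905, MATH and BTB genes -0.0029 and X-linked genes 0.007. X-linked genes had 0.12 with a minimum of 1 RPKM, 0.23 with 20 RPKM and 0.19 after rescaling, and ribosomal proteins 0.0073 after rescaling. Of the 322 named genes, 131 were past 2-fold and 74 of these stayed so under all 4 alternatives. Against the median of the 4 others, *C33G8.2* changed sign to 0.19 and *F45E1.4* to -0.33.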

Other observations

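Some small families stood out on reading the member list, and they and their genes were chosen after their values were seen. The 5 members of the *pud* family were all at least 2-fold higher, with a median of 1.56, and summed to 271 RPKM in *set-32*, 64.2 in *met-2 set-25*, 105 in the triple mutant, 159 in *hrde-1* and 84.2 in WT. All 18 members of the *nspc* family were above 0 and highest in *set-32*, with 10 at least 2-fold higher (55.6%, beside 4.19% of all members). They summed to 892 RPKM in *set-32* and 427 RPKM in WT, but their sequences are alike and reads may be split between them. Of 43 members of the transthyretin-like *ttr* family, 9 were at least 2-fold higher (20.9%, beside 4.19% of all members) and 0 lower, with a median of 0.48. The fatty acid and retinol binding protein *far-2* had 2897 RPKM in *set-32*, 2114 in *met-2 set-25*, 2531 in the triple mutant, 2180.2 in *hrde-1* and 1787 in WT. The *fipr* family went the other way, with 0 of 14 members above 0, a median of -1.06 and 8 at least 2-fold lower (57.1%, beside 2.14% of all members). WT was the highest of the 5 libraries for 11 of the 14, beside 19.5% of all members.

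*haf-6* is an ABC transporter gene required for efficient RNAi in *C. elegans*. It had 6.01 RPKM in *set-32*, 18.2 in *met-2 set-25*, 5.06 in the triple mutant, 20.3 in *hrde-1* and 24.4 in WT (log2 ratio -1.86, interval 0.156 to 0.376). Both libraries with *ok1457* were low for *haf-6* and the 3 others high. *saeg-2* had 39.6 RPKM in *set-32*, 8.39 in *met-2 set-25*, 5.17 in the triple mutant, 35.8 in *hrde-1* and 7.81 in WT (log2 ratio 2.20, interval 3.06 to 9.38), high in the 2 single mutants and low in the 3 others. The mitochondrial chaperone *hsp-6* had 442 RPKM in *set-32*, 233 in *met-2 set-25*, 404 in the triple mutant, 287 in *hrde-1* and 258 in WT (log2 ratio 0.77, interval 1.59 to 1.84), while *hsp-60*, which acts in the same organelle, had 212 RPKM in *set-32* and 224 RPKM in WT for its more abundant model. All of these values rest on 1 library per genotype.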
